A study of Mus musculus with 16 samples.

Results

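The major histocompatibility complex (MHC) antigen presentation genes were 10 of the 31053 genes counted in the series, chosen by symbol: H2-K1, H2-D1, B2m, Tap1 and Psmb8 of the class I pathway, and H2-Aa, H2-Ab1, H2-Eb1, Cd74 and Ciita of the class II pathway. All 10 were in the gene list of every library. Their unique molecular identifiers (UMIs, 1 for each captured RNA molecule) were summed per library and cell class and given as CPM, the UMIs of a gene per 1000000 UMIs of that class in that library. The samples were 16 single-cell RNA libraries, 1 for each mouse, of kidney cells enriched for glomeruli. The diabetic nephropathy (DN) mice were BTBR ob/ob, which lack functional leptin and become obese and diabetic, and the controls were BTBR +/+. Each genotype had 2 females and 2 males at 6 weeks and the same at 12 weeks. The methods of the study describe a fluorescent reporter switched on by a podocyte-specific Cre in its BTBR mice, and the sample labels do not mention it. Both kidneys of a mouse were pooled, and tubule fragments were depleted on a density gradient, so the shares of tubule cells are not those of the intact kidney.

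MHC class I molecules stand on nearly all nucleated cells and show peptides from inside the cell to CD8 T cells. H2-K1 and H2-D1 encode class I heavy chains and B2m the light chain, beta-2 microglobulin, that all heavy chains need at the surface. Psmb8 is a catalytic subunit of the immunoproteasome, which cuts proteins into peptides, and Tap1 is a subunit of the transporter that carries the peptides into the endoplasmic reticulum. MHC class II molecules show peptides from endocytosed proteins to CD4 T cells and are known mainly from macrophages, dendritic cells and B cells. H2-Aa and H2-Ab1 encode the alpha and beta chain of I-A, H2-Eb1 the beta chain of I-E, Cd74 the invariant chain that guards the groove until loading, and Ciita the transactivator that switches on class II genes. Both pathways respond to interferons, and endothelial and tubular cells of the kidney are known to be able to carry class II molecules.

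The upstream regions of 4 members are shown because H2-K1, H2-D1 and B2m carried the differences in mesangial-like cells given below, and because H2-Aa allows the class II arrangement to be set beside the class I one. Each run holds the 250 bases before a RefSeq start site on GRCm38.p6, 5′ to 3′ on the strand of the gene, with matches to the searched motifs in capitals. The motifs were the kappa B element of the class I enhancer (the 10 capitals that stand first in the H2-K1 and H2-D1 runs), the core of an interferon-stimulated response element (GAAA, any 2 bases and GAAA again, in the B2m run), TTCNNNGAA (a gamma-activated site), TGACG (a cyclic AMP response element core, found in the X2 box of class II genes) and ATTGG (an inverted CCAAT box, found in the Y box), each searched on both strands.
H2-K1 (chr17:34000348-34000597, minus strand): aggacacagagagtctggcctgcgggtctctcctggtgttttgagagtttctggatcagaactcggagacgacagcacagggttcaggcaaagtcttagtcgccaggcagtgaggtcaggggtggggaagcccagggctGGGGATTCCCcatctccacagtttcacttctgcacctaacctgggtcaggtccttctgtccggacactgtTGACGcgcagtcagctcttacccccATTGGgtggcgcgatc
H2-D1 (chr17:35262844-35263093, plus strand): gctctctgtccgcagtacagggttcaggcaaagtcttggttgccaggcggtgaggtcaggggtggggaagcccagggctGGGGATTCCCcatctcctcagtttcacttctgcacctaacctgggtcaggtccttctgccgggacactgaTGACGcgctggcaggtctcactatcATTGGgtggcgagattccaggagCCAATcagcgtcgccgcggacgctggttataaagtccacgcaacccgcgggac
B2m (chr2:122147437-122147686, plus strand): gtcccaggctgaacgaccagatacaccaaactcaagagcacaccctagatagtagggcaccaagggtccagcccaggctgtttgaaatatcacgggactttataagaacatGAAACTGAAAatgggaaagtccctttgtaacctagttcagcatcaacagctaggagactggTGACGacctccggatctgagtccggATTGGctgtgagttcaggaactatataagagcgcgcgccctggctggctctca
H2-Aa (chr17:34287824-34288073, minus strand): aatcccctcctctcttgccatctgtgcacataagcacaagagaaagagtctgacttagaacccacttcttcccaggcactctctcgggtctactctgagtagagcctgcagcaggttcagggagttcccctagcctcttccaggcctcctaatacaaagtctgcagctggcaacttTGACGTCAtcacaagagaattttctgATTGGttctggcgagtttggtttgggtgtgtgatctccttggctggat

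H2-K1 and H2-D1 shared the order and spacing of 3 motifs: the first letters of the kappa B element and TGACG lay 70 bases apart in both, and those of TGACG and ATTGG 25 bases apart. The TGACG to ATTGG spacing was also 25 bases in B2m and was 26 bases in H2-Aa. The kappa B element occurred in 0.0852% of the 32851 mouse promoters of the same length, the interferon element in 2.98%, TTCNNNGAA in 7.02%, TGACG in 17.8% and ATTGG in 33.8%, so the shorter motifs alone are common. Upstream regions were matched for 7 of the 10 members. Only these exact spellings were searched, so an element spelled otherwise stays in small letters. A run without capitals for a motif, such as the interferon element in H2-K1 and H2-D1, is therefore not shown to lack such an element. In H2-Aa, TGACG matched on both strands with an overlap, and the CCAAT of H2-D1 is ATTGG on the other strand. Besides those shown, Tap1 had TGACG and, on the other strand, ATTGG, H2-Eb1 had ATTGG on both strands, and Psmb8 had TTCNNNGAA. On GRCm38, H2-K1 spans chr17:33996017-34000347, H2-D1 chr17:35262730-35267499, H2-Aa chr17:34282744-34287823, H2-Ab1 chr17:34257689-34269419, H2-Eb1 chr17:34305867-34316674, Tap1 chr17:34187553-34197225 and Psmb8 chr17:34197721-34201454, while B2m spans chr2:122147686-122153083 and Ciita chr16:10480059-10528418.

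The libraries held 116439 cell barcodes, and 83294 cells passed the filters. Of these, 68424 fell into named classes. The ending -like marks that a name came from marker genes, and no member was used to form or name a class. The markers fixed for a class were highest there in all cases for mesangial-like (8 of 8), proximal tubule (PT)-like (13 of 13) and immune-like cells (13 of 13) and in 9 of 10 for glomerular endothelial cell (EC)-like cells, but in only 3 of 8 for the peritubular and venous EC-like class, whose name is therefore weak. A further endothelial cluster of 786 cells held markers of arterial EC but was led by those of another class. It took no subtype's name and is called the Slc14a1 EC cluster after the gene that leads it. Replicate 1 of the 4 female groups drew on another list of cell barcodes than the other 12 libraries and held 10510855 to 21728793 UMIs against 83410397 to 125551519. They are called the shallow batch below, and every male library lies in the deep batch. Over all barcodes before the filters, the median of control male 6 weeks replicate 2 was 698 UMIs, the fewest of any library. Its total of 96727107 UMIs lay within the range of the deep batch. DN male 6 weeks replicate 1 stood apart in these genes, as given below. At most 1.43% of the barcodes of a library recurred in another one. Nothing in the labels says whether same-numbered animals were littermates.

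UMIs of H2-K1, H2-D1 and B2m were found in every class, at the highest levels in endothelial and immune-like cells. The share of free RNA in the droplets was measured for Cd74 alone, so a low level of a class I gene is not read here as expression in that class. H2-K1 stood at 1826 ± 756 CPM (SD, n = 14 libraries) in arterial EC-like cells, 1551 ± 666 in the Slc14a1 EC cluster (n = 15), 1446 ± 574 in immune-like cells and 892 ± 550 in glomerular EC-like cells (n = 16 each). Among glomerular cells outside the endothelium it stood at 601 ± 327 CPM in podocyte-like cells (n = 15) and 358 ± 191 in mesangial-like cells (n = 16). Along the tubule it was highest in principal cell (PC)-like cells at 411 ± 142 CPM and lowest in PT-like cells at 145 ± 67.3. Smooth muscle and renin-like cells had the lowest level of all 16 classes, 132 ± 51.5 CPM. Each pair of neighbours in this order had overlapping library values.

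H2-D1 followed a like order in the vascular and immune classes, with 2625 ± 836 CPM in the Slc14a1 EC cluster, 2254 ± 448 in arterial EC-like cells, 1919 ± 722 in immune-like cells and 1627 ± 574 in glomerular EC-like cells. It fell off more along the tubule, to 91.1 ± 28.3 CPM in PT-like cells and 73.2 ± 18.1 in distal convoluted tubule (DCT)-like cells. B2m stood at 2205 ± 1178 CPM in immune-like cells, 1915 ± 993 in the Slc14a1 EC cluster, 1322 ± 619 in glomerular EC-like cells and 655 ± 337 in mesangial-like cells. Its lowest level was again in DCT-like cells, 76.3 ± 36.7 CPM. PT-like cells, which had little H2-K1 and H2-D1, held more B2m (373 ± 166 CPM) than the other tubule classes, where the means ran from 76.3 to 300.5 with library values that overlapped those of the next class.

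The peptide supply genes were more restricted than the chains. Psmb8 averaged 452 ± 107 CPM in immune-like cells and 164 to 326 in the 4 endothelial classes, 57.6 ± 43.4 in mesangial-like cells and at most 23.7 in every other class. Tap1 averaged 105 ± 52.8 CPM in immune-like cells, 46.7 to 58.3 in the endothelial classes and 22.1 ± 28.0 in mesangial-like cells. DN male 6 weeks replicate 1 stood out in mesangial-like cells, with Tap1 at 124 CPM against 5.04 to 22.6 in the other deep libraries. Its Psmb8 there was 213 CPM against 24.3 to 71.9, and its Tap1 in glomerular EC-like cells 223 against 18.6 to 59.7. Podocyte-like cells had 19.7 ± 27.6 CPM of Tap1 beside their high heavy chains, but 12.9 ± 8.09 without DN male 6 weeks replicate 1 (n = 14). PT-like cells had 2.74 ± 1.91 CPM. These are levels between classes of the same libraries, given as a description without a test.

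**Figure D1:**
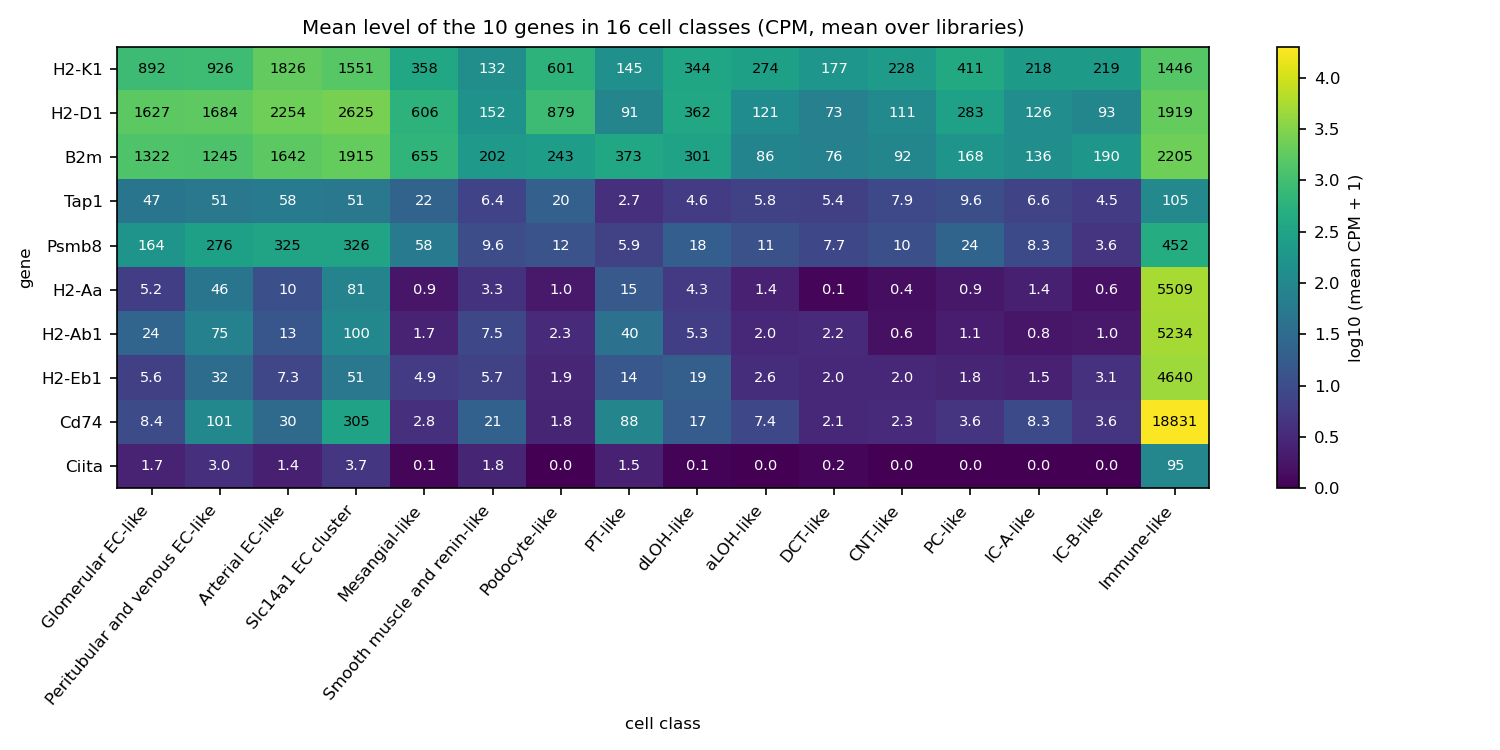
Mean CPM over libraries of the 10 genes (rows) in 16 cell classes (columns), with the colour on a log10 (CPM + 1) scale and the mean CPM printed in each cell. The class I rows are filled in every column and brightest in the endothelial and immune-like columns, and the class II rows are bright in the immune-like column, with Cd74, H2-Aa and H2-Ab1 next in the Slc14a1 EC cluster, peritubular and venous EC-like and PT-like columns.

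The class II genes were those of immune-like cells, by a wide margin. Cd74 reached 18831 ± 12751 CPM there, H2-Aa 5509 ± 2023, H2-Ab1 5234 ± 2749, H2-Eb1 4640 ± 1703 and Ciita 95.5 ± 45.9 (n = 16). The 163 immune-like cells with at least 3 UMIs of the C1q genes, which macrophages of the kidney are known to express, had 53613 ± 20196 CPM of Cd74 over the 8 libraries with 10 or more of them, and all of them had a Cd74 UMI. The other 685 immune-like cells, of which 41.0% carried at least 2 monocyte and 33.4% at least 2 T cell markers, had 9677 ± 6103 CPM. For each of these 5 genes the lowest immune-like library lay above the highest library of the next class. Ciita stayed at or below 3.73 CPM on average in all 15 other classes. The highest of these, the Slc14a1 EC cluster, was at 2.33 without DN male 6 weeks replicate 1. Ciita had no UMI in podocyte-like or type A intercalated (IC-A)-like cells.

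Outside the immune-like class the Slc14a1 EC cluster held the most Cd74, 305 ± 227 CPM, followed by peritubular and venous EC-like cells at 101 ± 71.2 and PT-like cells at 88.3 ± 68.5. Arterial EC-like cells had 30.1 ± 36.9 CPM and glomerular EC-like cells 8.44 ± 10.6. Mesangial-like cells had 2.81 ± 1.86 CPM and podocyte-like cells 1.84 ± 3.12. Cells of at least 1000 UMIs were thinned to 1000 and the others left out, among them 2295 of 17284 PT-like and 471 of 3978 DCT-like cells. A Cd74 UMI was then found in 14.8% of cells of the Slc14a1 EC cluster, 8.42% of peritubular and venous EC-like, 5.19% of PT-like and 0.615% of glomerular EC-like cells. Unthinned and over all cells the shares were 26.8%, 13.4%, 14.3% and 2.21%, at median depths of 4228.5, 3367, 8510.5 and 3463 UMIs. DCT-like cells gave the lowest thinned share, 3 of 3507 cells or 0.0855%, which is taken here as the level of free RNA in the droplets. Unthinned it was 1.18% at a median of 10648 UMIs, and connecting tubule-like cells had 1.16%. The 95% exact binomial interval was 0.018% to 0.25% in DCT-like and 0.43% to 0.85% in glomerular EC-like cells, covering counting error only. The glomerular EC-like share is not read as above free RNA. Thinned shares were also 0.779% in IC-A-like, 0.744% in descending loop-like and 0.685% in smooth muscle and renin-like cells. Over the glomerular EC-like libraries the share ran from 0 to 2.24%, with a median of 0.400%.

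**Figure D2:**
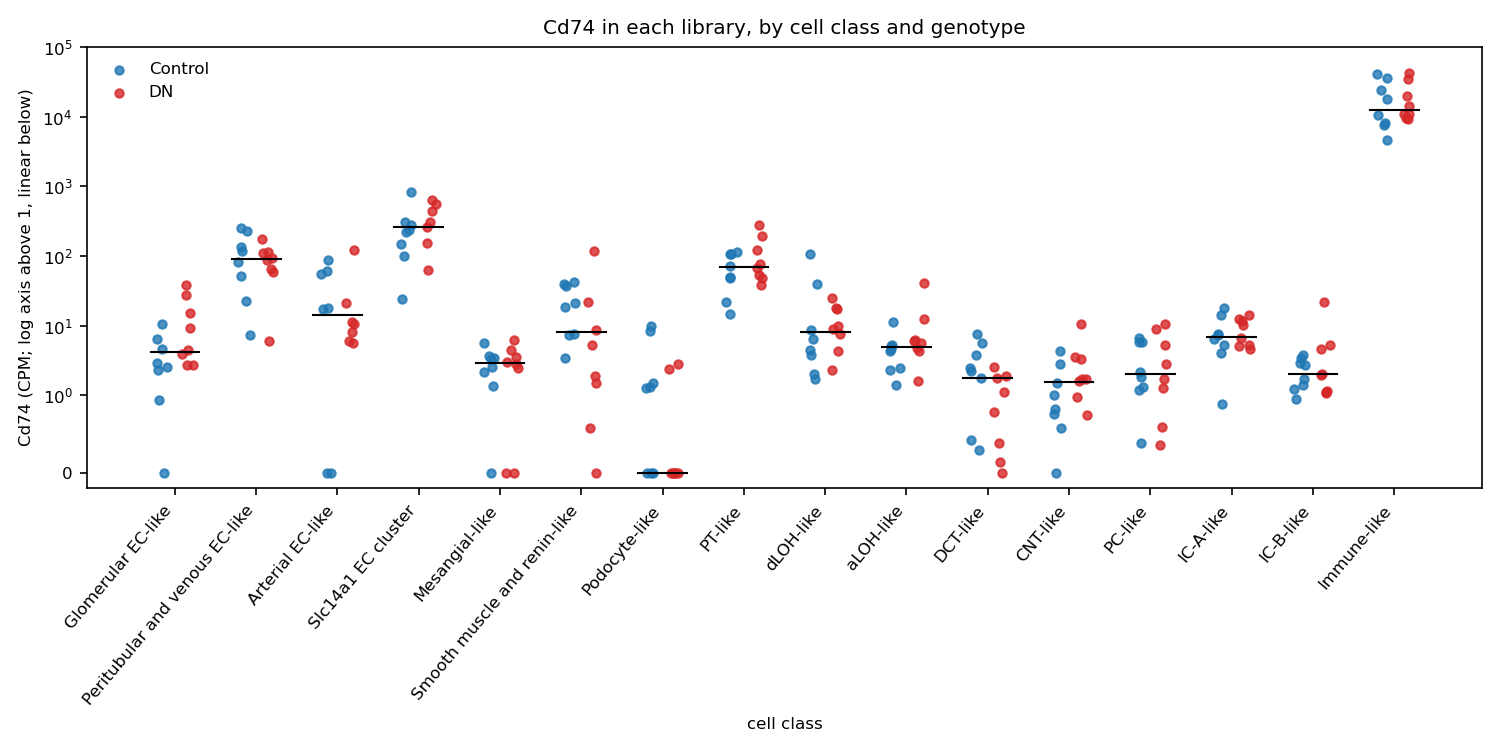
Cd74 CPM of each library (points, blue control and red DN) in 16 cell classes, on an axis that is logarithmic above 1 CPM and linear below, with a black line at the median over libraries. Immune-like cells lie between 4641 and 42380 CPM, PT-like cells between 14.6 and 283, and the control and DN points overlap in every class.

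Leukocyte RNA was measured beside these values with 12 markers. In PT-like cells there were 37645 UMIs of the class II members against 278 of the leukocyte markers, a ratio of 135, while immune-like cells gave 126079 against 75715, a ratio of 1.67. The ratio was 43.6 in the Slc14a1 EC cluster, where Tyrobp had no UMI and 5 of the 12 markers were at 0, and 25.3 in peritubular and venous EC-like cells, where 4 were at 0. It was 5.04 in glomerular EC-like and 2.13 in arterial EC-like cells, nearer to that of immune-like cells, and 0.781 in DCT-like cells. Leaving out every cell with a UMI of a leukocyte marker other than Lyz2, Cd3e and Cd79a moved the summed class II members from 157.6 to 157.0 CPM in PT-like cells, from 537.1 to 536.4 in the Slc14a1 EC cluster and from 43.4 to 40.1 in glomerular EC-like cells.

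In PT-like cells the 173 cells with the most Cd74, 1% of 17284, held 51.3% of its UMIs. That share was 35.7% in peritubular and venous EC-like cells, 21.5% in the Slc14a1 EC cluster and 6.39% in immune-like cells, and 62.6% to 89.2% in the other 12 classes, where Cd74 was lower. A UMI of a class II chain (H2-Aa, H2-Ab1 or H2-Eb1) was found in 71.9% of the 2466 cells with a Cd74 UMI and in 10.7% of the others, at median depths of 14982.5 and 7532.5 UMIs. Of the 497 cells with at least 10 Cd74 UMIs, 99.2% had a class II chain and 2.62% a leukocyte marker UMI, against 0.882% in the other PT-like cells. The Slc14a1 EC cluster had 43 such cells, all with a class II chain and 4.65% with a leukocyte marker, against 2.29% in its other cells. Peritubular and venous EC-like cells had 29, of which 96.6% had a chain and 6.90% a leukocyte marker, against 2.72% in the others of that class.

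The PT-like cluster with the most Slc5a2 and Slc5a12, the sodium-coupled glucose and lactate transporters of the early proximal tubule (763 and 842 CPM), had the most Cd74, 247 CPM pooled over its 4068 cells. Its 16 libraries ran from 43.9 CPM through a median of 136 to 523. The 2 clusters with the most Kap, an androgen-responsive gene of the later segments, among those drawn from all libraries had 48.3 and 44.3 CPM, with libraries from 4.87 through a median of 41.2 to 134 in the first and a median of 30.9 and a highest of 97.2 in the second, so that the ranges overlap. A further cluster with much Slc5a2 and Slc5a12 (476 and 371 CPM, 4488 cells) had 115 CPM of Cd74, from 0 through a library median of 74.1 to 264. H2-Aa followed at 43.6 CPM against 8.71 and 8.08, and H2-Ab1 at 85.8 against 38.0 and 33.5. Another PT-like cluster of 455 cells had the most Kap (41523 CPM) and 12.3 CPM of Cd74, and 98.9% of its cells came from 1 library. The clusters were formed without these genes, and the contrast is given without a test.

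Cd74 in PT-like cells varied widely between mice of 1 group. Controls at 6 weeks had 73.0 and 49.7 CPM in females and 106 and 14.6 in males, and DN mice of that age 67.1 and 47.7 in females and 192 and 37.7 in males. At 12 weeks the controls had 114 and 48.3 CPM in females and 108 and 21.6 in males, and the DN mice 120 and 52.5 in females and 283 and 76.4 in males. Replicate 1 was above replicate 2 in all 8 groups, and the genotypes overlapped at both ages. The PT-like clusters differed in Cd74, as given above. Their shares in each library are not given here, and the part of that mix in these values was not tested. Between animals of the same sex, age and replicate number, DN was higher in 2 of 4 pairs at 6 weeks and 4 of 4 at 12 weeks. These differences ran from -0.12 to 1.31 and from 0.07 to 1.78 on the log2 (CPM + 1) scale. The DN difference was 0.40 ± 0.79 on the log2 scale (SE) at 6 weeks and 0.76 ± 0.79 at 12 weeks, with an adjusted p of 1.00 at both ages by edgeR's quasi-likelihood test. At 6 weeks its sign rested on single libraries: it was -0.47 without DN male 6 weeks replicate 1 and -0.05 without control male 6 weeks replicate 2.

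DN was compared with control at each age in 13 endothelial, mesangial, tubule and immune-like classes, to ask whether antigen presentation genes change at the onset and early stage of diabetic nephropathy. At 6 weeks, 0 of 95 combinations of member and class passed an adjusted p of 0.05 by edgeR's quasi-likelihood test, beside 0.0779% of all combinations of gene and class. At an unadjusted p under 0.05 there were 12 (3.73% of all combinations of gene and class), 65 of the 95 differences were positive, and their median was 0.17 on the log2 scale. Without DN male 6 weeks replicate 1, 42 of 100 were positive, with a median of -0.06. At 12 weeks it was again 0 of 95 (0.385% of all), with 7 at an unadjusted p under 0.05 (5.64% of all), 40 positive and a median of -0.10. That balance rested on control male 12 weeks replicate 1, without which 70 of 102 were positive, with a median of 0.16. The share of positive differences over all genes is not given here at either age, so these balances are a description. DESeq2 also called 0 at both ages, with 11 and 7 at an unadjusted p under 0.05. The DN effect at 12 weeks minus that at 6 weeks was called for 0 of 95 by edgeR (0% of all, and 7 at an unadjusted p under 0.05, as were 1.24% of all) and for 0 by DESeq2 (4).

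Animals with the same sex, age and replicate number deviated together, so the comparison was also made within the 8 pairs as a block. Then 7 combinations were called at 6 weeks (1.33% of all combinations of gene and class) and 4 at 12 weeks (3.26%). Of the 7, 5 were in mesangial-like and 2 in peritubular and venous EC-like cells, and of the 4, 2 were in mesangial-like cells and the others were H2-K1 in PC-like and IC-A-like cells. When control male 12 weeks replicate 1 was left out of the block, the 12-week count by edgeR was 0 of 93 (11 at an unadjusted p under 0.05), beside 1.65% of all combinations in the 12 classes that could be fitted.

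In mesangial-like cells, the contractile cells of the glomerular tuft, B2m and both class I heavy chains were higher in the DN animal of all 8 pairs. B2m in the controls at 6 weeks stood at 821 and 445 CPM in females and 352 and 438 in males, and in the DN mice at 1110 and 558 in females and 1020 and 720 in males. The controls of 12 weeks had 1039 and 395 CPM in females and 368 and 286 in males, and the DN mice 1444 and 492 in females and 544 and 449 in males. The shallow batch (the first value of the females) ran high in both genotypes and the groups overlapped, while every DN mouse lay above its partner. Of the genes with a mean of at least 5 CPM in this class, 4.08% were higher in DN in all 8 pairs.

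H2-D1 in mesangial-like cells had 512, 416, 428 and 290 CPM in the controls at 6 weeks (females, then males) against 894, 464, 1185 and 700 in the DN mice. The values at 12 weeks were 768, 456, 518 and 298 CPM against 1082, 506, 759 and 429. H2-K1 had 163, 294, 322 and 252 CPM in the controls at 6 weeks against 210, 373, 1004 and 406, and at 12 weeks 252, 314, 422 and 278 against 291, 349, 501 and 297. The pair differences of H2-K1 ran from 0.34 to 1.64 on the log2 (CPM + 1) scale at 6 weeks and from 0.10 to 0.25 at 12 weeks, and the difference between the ages was not called with or without the block.

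Without the block the DN differences in mesangial-like cells at 6 weeks were 1.00 ± 0.34 (log2, SE) for H2-D1, 0.86 ± 0.32 for H2-K1, 0.81 ± 0.37 for B2m, 1.82 ± 0.59 for Tap1 and 0.99 ± 0.46 for Psmb8, and none passed (adjusted p 0.29 to 0.69, edgeR). With no filter on low counts, which raised the calls over all genes as well, all 5 passed without the block (adjusted p 2.2e-05 to 0.037). No share of all genes is given for that setting, so these calls are a description. With the block the differences were 0.97, 0.88, 0.80, 2.13 and 1.16, and all 5 passed with adjusted p of 0.00065, 0.0024, 0.0023, 0.00015 and 0.016, beside 3.81% of all genes of this class. Leaving out DN male 6 weeks replicate 1 as well as blocking left B2m (0.52, adjusted p 0.026) and H2-D1 (0.75, adjusted p 0.011) called, while H2-K1 was at 0.51 with an adjusted p of 0.054, Tap1 at 1.10 with 0.25 and Psmb8 at 0.13 with 0.92 (1.81% of all genes were called). The differences at 12 weeks without the block were 0.59 ± 0.37 for B2m and 0.53 ± 0.34 for H2-D1 (adjusted p 0.66 and 0.67). With the block B2m was called at 0.55 (adjusted p 0.010) and H2-D1 at 0.48 (adjusted p 0.035), and both remained called without that library. At that age 12.2% of all genes of the class were called with the block, and 12.9% when the library was left out as well. With the block and without control male 12 weeks replicate 1, which was next most often the highest in these genes (below), neither was called at 12 weeks: B2m was at 0.52 (adjusted p 0.082) and H2-D1 at 0.42 (adjusted p 0.21), beside 6.76% of all genes, in a fit with 3 pairs at that age.

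Tap1 and Psmb8 differed from the chains in this count: their DN animal was the higher in 7 and 5 of the 8 pairs, and Tap1 rested on 2 to 261 UMIs per library. None of the class II members was above 7.31 CPM in any mesangial-like library other than H2-Eb1, which reached 14.6 in a control. The summed leukocyte markers in mesangial-like cells had medians of 9.88 CPM in the control and 4.83 in the DN libraries at 6 weeks, and of 7.81 and 6.17 at 12 weeks, lower in DN at both ages.

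**Figure D3:**
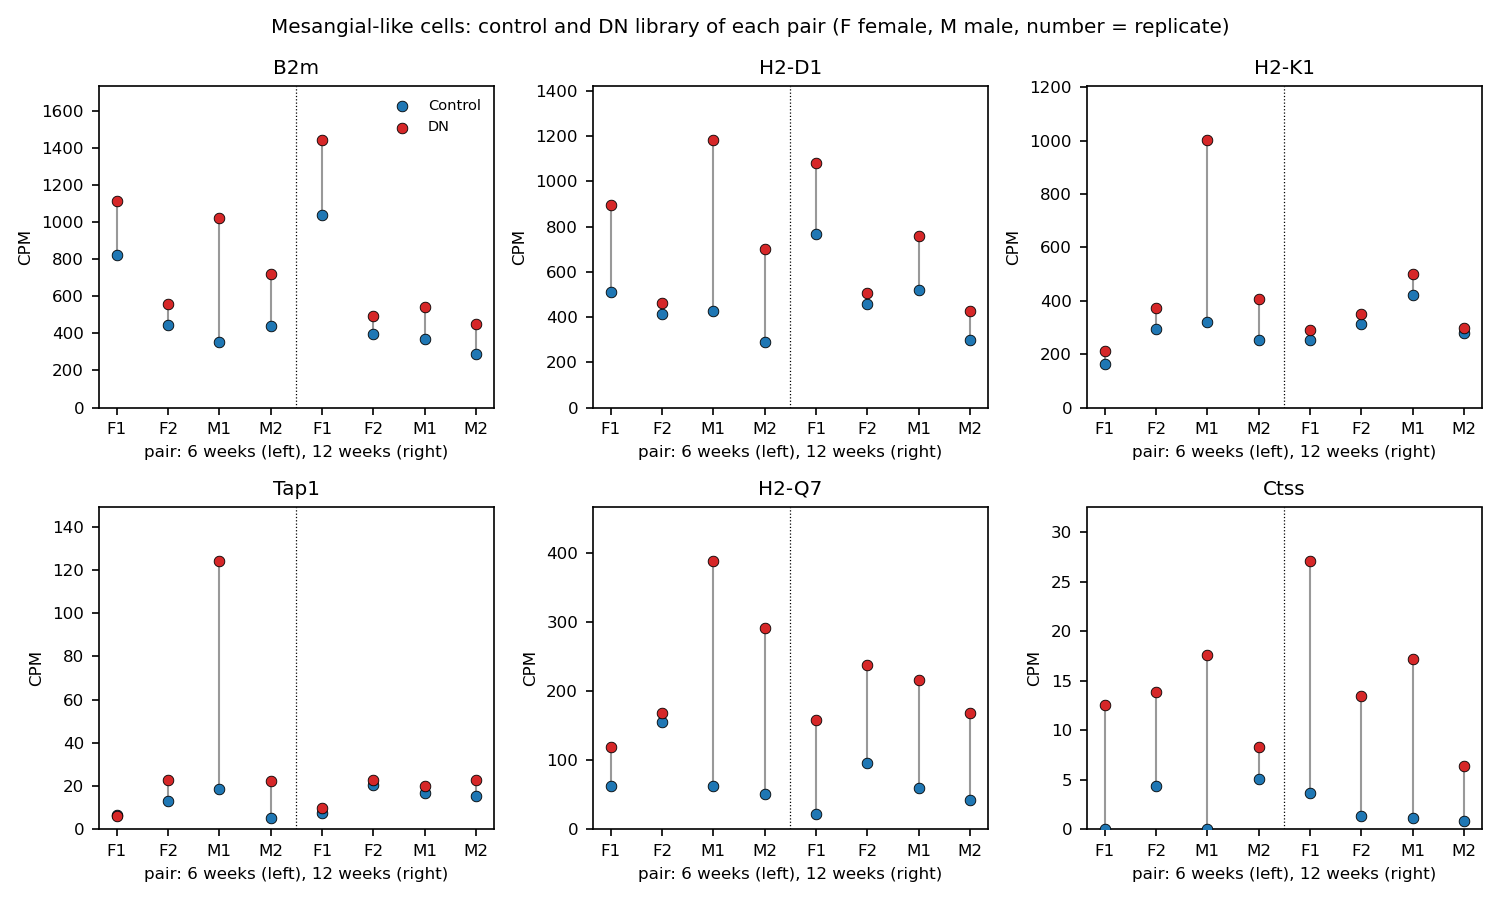
CPM in mesangial-like cells of the control (blue) and DN (red) library of each of 8 pairs with the same sex, age and replicate number, joined by a grey line, at 6 weeks left and 12 weeks right of the dotted line (F female, M male, then the replicate), with axes from 0. The red point lies above the blue one in all 8 pairs for B2m, H2-D1, H2-K1, H2-Q7 and Ctss, and the tallest line for H2-K1 and Tap1 belongs to DN male 6 weeks replicate 1.

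Further genes of the pathway were tested as lists of 12 heavy chains (92 combinations of gene and class), 12 genes of peptide supply and loading (139) and 12 genes of class II chains and loading (67). By edgeR at an adjusted p of 0.05 the counts at 6 weeks were 0 in each list, and at 12 weeks 1 heavy chain combination was higher and 1 lower in DN, 0 of peptide supply changed and 1 of class II loading was higher. Both higher calls were again in mesangial-like cells, where 2.92% of all genes were called at 12 weeks, and the lower one in connecting tubule (CNT)-like cells (0.837%). Pairs were counted in mesangial-like cells for genes of the heavy chain and class II lists with a mean of at least 5 CPM. H2-Q7, Ctss and Lgmn were higher in DN in all 8 pairs and H2-M3 in 7. H2-Q2, H2-Q4, H2-Q6 and H2-T22 were higher in 5, H2-T23 and Rfx5 in 4, Mr1 and Rfxap in 2 and Rfxank in 1. Ctss encodes cathepsin S, the protease that trims the invariant chain from class II molecules in antigen-presenting cells. It had 0 to 5.04 CPM in the 8 control libraries and 6.40 to 27.1 in the 8 DN libraries, with no overlap. Of the genes with a mean of at least 5 CPM in this class 0.469% were so separated, but Ctss reached that mean only through the DN libraries (13.1 and 16.1 CPM on average at 6 and 12 weeks, against 2.34 and 1.76 in control), so the share says nothing about this gene. These are 0 to 4 UMIs in each control library and 4 to 72 in each DN library. Its difference at 12 weeks, 3.42 ± 0.65 (log2, SE; adjusted p 0.0051, edgeR), is for the same reason given as a description.

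H2-Q7, a heavy chain gene of the Qa-2 family, had 62.1 and 50.4 CPM in the male and 63.1 and 155 in the female control mesangial-like cells at 6 weeks, against 389, 291, 119 and 168 in DN. At 12 weeks the controls ran from 21.9 to 96.1 CPM and the DN mice from 158 to 238, and the difference was 1.79 ± 0.40 (log2, SE; adjusted p 0.016, edgeR). In CNT-like cells the same gene ran from 3.49 to 13.7 CPM in controls and 0 to 1.51 in DN at 12 weeks. It reached a mean of 5 CPM only in the controls of that age, so its difference of -2.71 ± 0.53 (adjusted p 0.014) is given as a description, as for Ctss. The mesangial-like call was lost without control male 12 weeks replicate 1 or 2, DN female 12 weeks replicate 2 or DN male 12 weeks replicate 1 (adjusted p up to 0.10), and the CNT-like call without control female 12 weeks replicate 2, control male 12 weeks replicate 1 or either DN male of 12 weeks (up to 0.13). H2-Q7 is one of several similar genes, and how far reads were split between them was not measured, so its values are uncertain. Of the members, H2-D1 shared 6.45% of the 60-base stretches in its last 400 bases with other genes, and the other 9 members shared none.

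In peritubular and venous EC-like cells the block called H2-Eb1 (1.90, adjusted p 0.0061) and H2-Ab1 (1.15, adjusted p 0.026) higher in DN at 6 weeks, beside 0.308% of all genes of the class. H2-Eb1 had 3.20, 6.11, 21.9 and 7.41 CPM in the controls (females, then males) and 17.9, 9.03, 87.5 and 34.6 in the DN mice. At 12 weeks the controls had 57.1, 7.47, 80.7 and 15.8 CPM and the DN mice 17.9, 73.7, 44.8 and 27.4, with no common direction. The block called the difference between the 2 DN effects for H2-Eb1 (-2.56, adjusted p 0.017), the only member so called, and 0.0388% of all combinations of gene and class were. Both genes were higher in the DN animal of all 4 pairs at 6 weeks, H2-Eb1 by 0.50 to 2.17 and H2-Ab1 by 0.31 to 1.60 on the log2 (CPM + 1) scale. So was Tap1, by 0.05 to 1.51, without a call. The share of all genes of a class with the same sign in all 4 pairs of an age was not counted. Neither the 6-week calls nor this one remained without DN male 6 weeks replicate 1, where H2-Eb1 was at 1.69 (adjusted p 0.47), H2-Ab1 at 0.76 (adjusted p 0.61) and the H2-Eb1 difference between ages at -2.33 (adjusted p 0.92), in a fit with 3 pairs at 6 weeks. These libraries held 12 to 225 cells and 1 to 126 UMIs of H2-Eb1. The summed leukocyte markers in this class had medians of 7.10 CPM (2.73 to 13.0) in control and 17.5 (2.08 to 29.6) in DN mice at 6 weeks and 6.65 and 11.3 at 12 weeks, and their part in these differences was not tested.

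In glomerular EC-like, PT-like and immune-like cells no member was called at either age, with or without the block over all libraries. H2-D1 in PT-like cells was nevertheless higher in the DN animal of all 8 pairs, by 0.14 to 0.47 at 6 weeks and 0.06 to 0.64 at 12 weeks on the log2 (CPM + 1) scale, as were 5.64% of the genes of that class with a mean of at least 5 CPM. With the block it was at 0.27 and 0.29 (adjusted p 0.26 and 0.20). Over the 12 classes with all 8 pairs, 4 of 78 combinations of member and class were higher in DN in every pair (2.24% of all) and 0 were lower in every pair (2.24% of all), and the other 3 were B2m, H2-D1 and H2-K1 in mesangial-like cells. Without the filter on low counts, which also raised the calls over all genes, 5 members passed in glomerular EC-like cells and H2-Eb1 in PT-like cells at 6 weeks, and Cd74 in glomerular EC-like cells at 12 weeks (adjusted p 0.0088). The 5 were Ciita, Tap1, H2-Ab1, H2-Aa and Cd74, and Ciita had no UMI in the controls of 6 weeks. Leaving out DN male 6 weeks replicate 1 lowered the mean over libraries from 5.23 to 2.76 CPM for H2-Aa and from 1.73 to 0.996 for Ciita. No share over all genes is given without the filter, so its calls are a description. The same setting also called members lower in DN: Cd74 (-2.07), H2-Aa (-2.71) and H2-Eb1 (-1.56) in descending loop (dLOH)-like cells at 6 weeks. At 12 weeks these were B2m (-0.86) and Psmb8 (-1.39) in DCT-like cells. Its other calls were H2-Eb1 in peritubular and venous EC-like cells at 6 weeks (1.80) and Cd74 in ascending loop (aLOH)-like cells at 12 weeks (1.75), beside those in mesangial-like cells given above. The Cd74 difference in glomerular EC-like cells was 1.54 ± 0.73 at 6 weeks and 1.90 ± 0.84 at 12 weeks (DN over control, log2, SE; adjusted p 1.00 at both ages, edgeR). At 6 weeks it was 0.23 without DN male 6 weeks replicate 1. At 12 weeks the controls had 2.59, 0, 4.60 and 2.32 CPM (females, then males) and the DN mice 27.1, 2.70, 15.4 and 2.71, higher in DN in all 4 pairs by 0.16 to 2.97 on the log2 (CPM + 1) scale, with 0 to 22 UMIs in the controls and 1 to 77 in DN. With the block and without DN male 6 weeks replicate 1 it was called at 12 weeks (1.98, adjusted p 0.0037), as was B2m in arterial EC-like cells (-0.80, adjusted p 0.016), 2 of 6 calls in a setting that called 3.65% of all combinations of gene and class, and 0.661% at 6 weeks. At 12 weeks Cd74 had a mean of at least 5 CPM in DN alone (12.0 against 2.38 in control), so its call is given as a description, as for Ctss. The arterial EC-like class had only 2 complete pairs at that age, with B2m at -0.85 and -0.78 on the log2 (CPM + 1) scale. The summed leukocyte markers in glomerular EC-like cells had medians of 10.1 CPM in control and 11.8 in DN mice at 12 weeks, and their part in the Cd74 values was not tested. H2-K1 in PC-like cells had 371, 506, 826 and 434 CPM in the controls at 12 weeks and 259, 407, 478 and 384 in the DN mice, lower in each pair, and was called at -0.37 with the block (adjusted p 0.024, beside 6.97% of all genes). Without control male 12 weeks replicate 1, the library with 826 CPM, it was at -0.26 with an adjusted p of 0.21 (2.93% of all genes). In IC-A-like cells the controls had 207, 276, 424 and 203 CPM and the DN mice 141, 215, 259 and 196, a difference called at -0.34 (adjusted p 0.041, beside 2.56%) and, without the same library (424 CPM), at -0.22 with an adjusted p of 0.52 (1.55%).

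**Figure D4:**
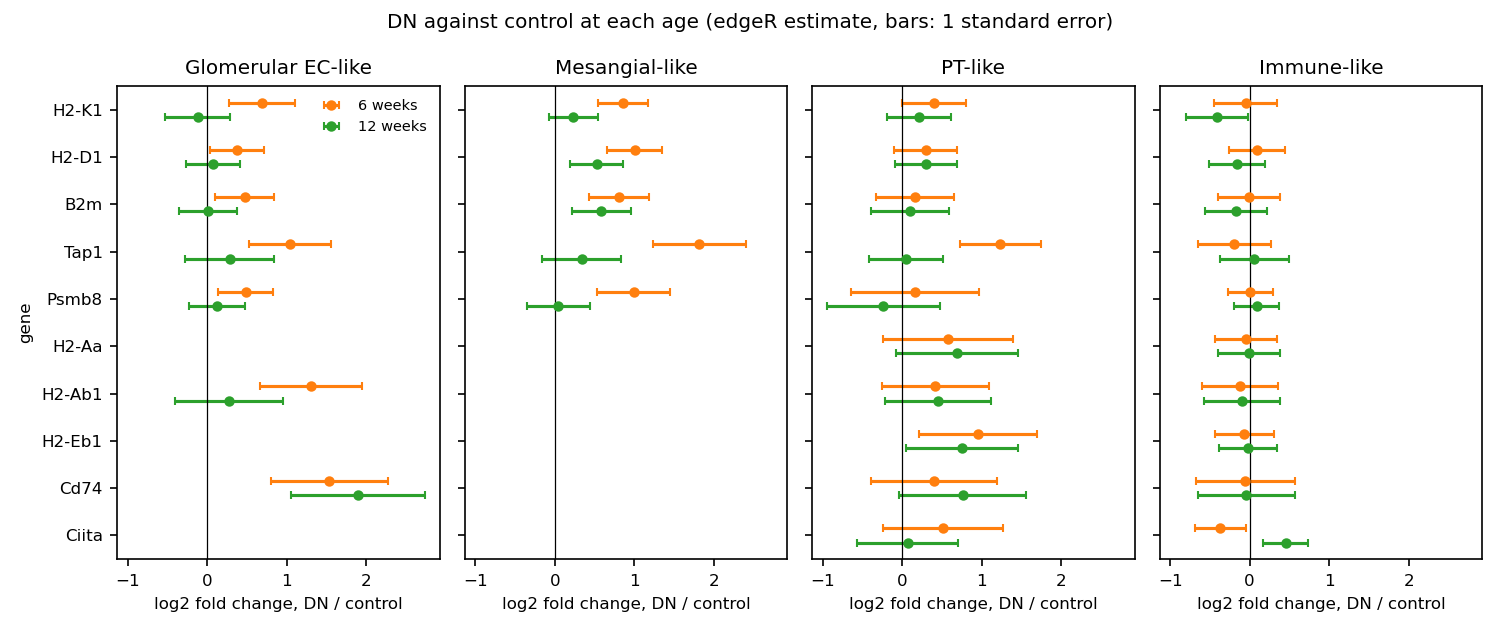
Log2 fold change of DN over control (x axis) of each member (y axis) at 6 weeks (orange) and 12 weeks (green) in 4 cell classes, as edgeR estimates without the block, with bars of 1 standard error. The 5 class I pathway genes lie to the right of 0 at 6 weeks in mesangial-like cells, none of the points shown passed an adjusted p of 0.05, and genes without a point were too low to test.

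DN male 6 weeks replicate 1 stood apart from the other mice in these genes. Among the 12 libraries of the deep batch, and with genes whose mean over the other libraries was at least 5 CPM, it was the highest in 44 of 106 combinations of member and class (41.5%), beside 4.87% of all combinations of gene and class, and 40 were over 2-fold above the median of the others (1.36% of all). In glomerular EC-like cells it was the highest for 6 of 6 members and in mesangial-like and podocyte-like cells for 5 of 5 each. In arterial EC-like cells it led for 8 of 9 and in the Slc14a1 EC cluster for 7 of 9. It led for 0 of 8 in smooth muscle and renin-like, 0 of 7 in dLOH-like, 0 of 5 in DCT-like and 0 of 5 in PC-like cells.

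In its glomerular EC-like cells H2-K1 stood at 2739 CPM, against 597 to 1263 in the other deep libraries, Tap1 at 223 against 18.6 to 59.7, and H2-Ab1 at 113 against 4.82 to 29.8. In its mesangial-like cells Tap1 stood at 124 CPM against 5.04 to 22.6 and Psmb8 at 213 against 24.3 to 71.9. Immune-like cells of the same mouse had 256 CPM of Tap1 against 67.2 to 148, but Cd74 at 10776 CPM was near the median of the others, 10738. Genes of the interferon response list moved with the members: this library was the highest in 102 of 341 combinations (29.9%), and Iigp1, an interferon-induced GTPase, stood at 492 CPM in its glomerular EC-like cells against 29.8 to 62.2 and at 878 in its mesangial-like cells against 45.1 to 135. The leukocyte list was the highest there in 0 of 15 combinations. Control male 12 weeks replicate 1 came next, with 32 of 108 member combinations (29.6%) and 75 of 335 of the interferon list (22.4%), and no other library had more than 6 of the member combinations. The share of all combinations of gene and class was not counted for control male 12 weeks replicate 1. Its counts are thus not read as particular to these genes.

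**Figure D5:**
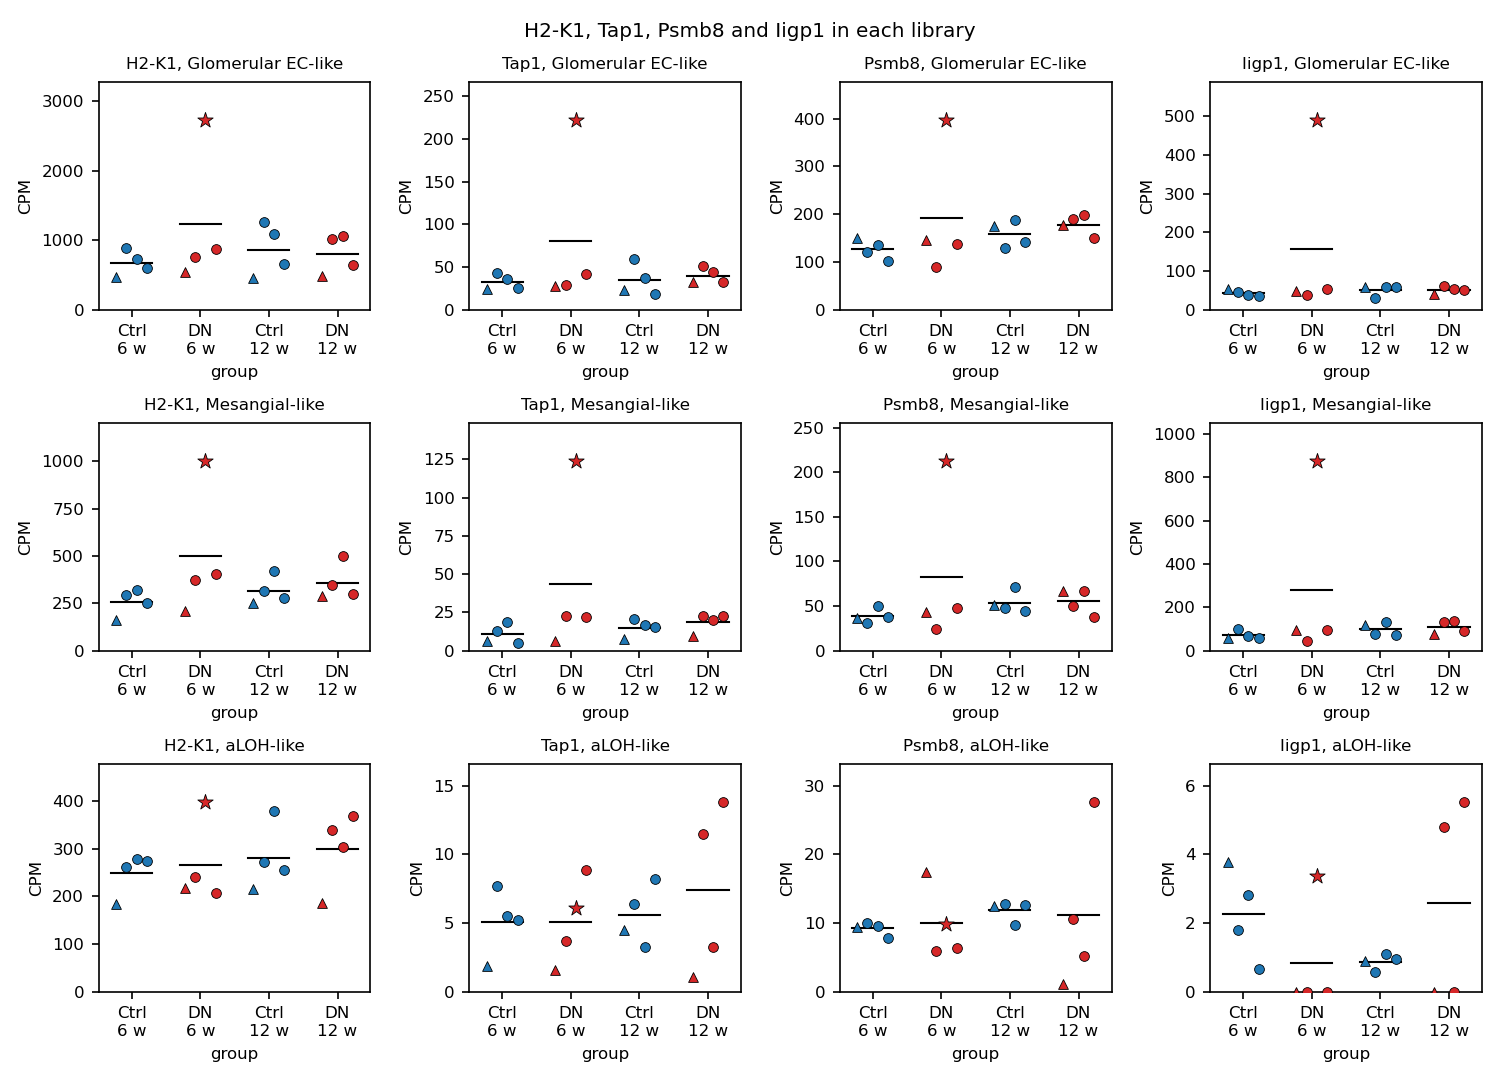
CPM of H2-K1, Tap1, Psmb8 and Iigp1 (columns) in glomerular EC-like, mesangial-like and aLOH-like cells (rows) of each library, by genotype and age, with triangles for the shallow batch, a star for DN male 6 weeks replicate 1, and a black line at the group mean. The star is far above all other points for all 4 genes in the first 2 rows, at 492 and 878 CPM for Iigp1. In the aLOH-like row it is the highest point for H2-K1 by a small margin (399 against 379 CPM) and lies among the others for Tap1, Psmb8 and Iigp1.

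Age was compared within each genotype. From 6 to 12 weeks in control mice 0 of 95 combinations were called by edgeR (0.000803% of all; 8 at an unadjusted p under 0.05, as were 2.52% of all) and 0 by DESeq2 (9), with 86 of 95 differences positive and a median of 0.29 on the log2 scale (67 of 102 and 0.10 without control male 12 weeks replicate 1). The control mice of the 2 ages are different animals with 4 libraries each. Of these, control male 6 weeks replicate 2 had the fewest UMIs in a median barcode before the filters. The share of positive differences over all genes is not given here for either genotype, so the balances of sign with age are a description. With blocks of sex, genotype and replicate number, 2 combinations were called, beside 0.103% of all: H2-Eb1 in peritubular and venous EC-like cells at 2.44 (adjusted p 0.016; 2.56 ± 0.57 and 0.44 without the block), and Cd74 in dLOH-like cells, lower at 12 weeks, at -2.98 (adjusted p 0.0085). The latter ran from 1.74 to 106 CPM over all libraries, the highest being control male 6 weeks replicate 1, with a leukocyte marker sum of up to 42.1 CPM in a control of 6 weeks, and the part of that RNA in the difference was not tested. Neither call remained when control male 12 weeks replicate 1 was left out of the block. These blocks join animals of different ages by replicate number alone. The check for pairing covered animals of the same age only, and in females the replicate number is also the barcode batch. In DN mice 0 of 95 were called (0% of all; 2 at an unadjusted p under 0.05, as were 2.74% of all, and 2 by DESeq2, which called 0), with 47 positive and a median of -0.00089.

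Between the sexes, with the barcode batch as a term because all males lie in the deep batch, 1 of 102 combinations was called, beside 2.95% of all. H2-D1 in PT-like cells was lower in females by -0.92 ± 0.25 (log2, SE; adjusted p 0.015, edgeR). Within the deep batch the 4 females had 56.0 to 75.5 CPM (median 61.6) and the 8 males 67.4 to 161 (median 97.7), an overlap of low males with high females, and the test in that batch alone gave the same size with an adjusted p of 0.039. Without the batch term it was -0.35 with an adjusted p of 0.49, and the call was lost when any of 3 deep female libraries was left out (adjusted p 0.052 to 0.059). At an unadjusted p under 0.05 there were 19 combinations of 102 (14.8% of all combinations of gene and class), and 17 of 102 differences were positive, with a median of -0.37. DESeq2 called 1 combination as well. Among the further genes, Cd1d1, a class I-like chain that presents lipids, was higher in female PT-like cells (1.58, adjusted p 0.026), while H2-T22 (-0.50, 0.0093), H2-Q6 (-2.11, 0.033), Psme2, an activator of the proteasome (-0.58, 0.0058), Pdia3 and Calr of the peptide loading complex (-0.71, 0.0036 and -0.52, 0.012) and H2-DMa, the class II peptide exchange factor (-1.47, 0.047), were lower. Of the interferon list, Stat2 was higher (0.56, 0.035) and Jak1 lower (-0.29, 0.030). In PT-like cells 27.3% of all genes were called between the sexes. Cd1d1 was low, at or below 1.68 CPM in every PT-like library, with medians of 1.15 in females and 0.374 in males and overlapping ranges. H2-DMa overlapped as well, with 2.56 to 10.2 CPM in females and 1.63 to 17.5 in males over all libraries. How far the calls of the further and interferon genes depend on the batch term or on single libraries is not given here.

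The balance of the class I heavy chains moved with the barcode batch. The ratio of H2-K1 to H2-D1 CPM, a ratio of 2 genes within 1 library, was lower in all shallow libraries than in all deep ones in 14 of 16 classes. In glomerular EC-like cells it was 0.189 to 0.214 against 0.531 to 1.15, and in immune-like cells 0.193 to 0.380 against 0.794 to 1.30. Comparing female replicate 1 with replicate 2, B2m was higher in the shallow library of all 4 pairs in all 14 classes compared (median log2 ratio 1.12), H2-D1 in 10 of 14 (0.63) and Cd74 in 7 of 14 (1.26), beside 13% of all combinations of gene and class. H2-K1 was lower in all 4 pairs in 13 of 14 classes (-0.61) and Tap1 in 4 of 14 (-0.56), beside 29% of all. Each of the other members was higher or lower in all pairs in at most 3 classes. Replicate and batch cannot be told apart in females.

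Across 15 named classes, the genes outside the lists whose mean levels followed Cd74 most closely were Apobec1, Rpsa, Il16, Itgal and Rplp0 (Pearson r of log2 (CPM + 1) of 0.946 to 0.922 over 7130 genes compared). Those most like H2-K1 were Idnk, Krtcap2, Lypla2, Nras and Tram1 (r 0.939 to 0.916). All 5 of the first set were highest in immune-like cells, and the second set peaked in arterial EC-like, glomerular EC-like or immune-like cells. The points share the same 16 libraries, and the correlations are a description of the order of the classes.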

How the data were processed

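Single-cell RNA libraries were 10x 3′ libraries of 16 mice. The deposited files hold UMI counts per gene and cell barcode, which the authors made with Cell Ranger 3.0.2 on mm10 and did not normalize. Cells with 200 to 7000 genes and at most 50% mitochondrial UMIs were kept (94436 of 116439 barcodes), with at most 20% in classes outside the tubule. Without the antigen presentation genes, cells were integrated over libraries with harmony (2000 variable genes, 30 components) and clustered with leidenalg 0.10.2 at resolution 1 on 20 neighbours (scanpy 1.11.5, Python 3.11.15) into 48 clusters, of which 16 (14870 cells kept) went unnamed: 9 held markers of a second class, 5 too few markers, 1 was shallow, and in 1, the Slc14a1 EC cluster, markers of another class led. Cells with markers of a second lineage were left out as doublets (9811, 10.4%; Scrublet marked 2122, 2.25%, as an alternative), as were 1331 for mitochondrial UMIs.

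Counts were summed per library and class (at least 10 cells) and tested with edgeR 4.0.16 (R 4.3.3; quasi-likelihood, TMM, filterByExpr), in a model of age plus the effects of sex and of genotype at each age, with Benjamini-Hochberg adjustment over all genes of a class at 0.05. The study's own test compared single cells; here the mouse is the replicate. The barcode batch was read from which cell barcodes libraries share and is not labelled. Alternatives were DESeq2 1.42.0, other size factors, no filter, batch terms, the deep batch alone, each library left out, other doublet calls, cells with leukocyte UMIs left out, sums of at least 20 cells, and no mitochondrial genes. Samples with the same sex, age and replicate number were checked for pairing: their deviations from the group means correlated at 0.147 to 0.761 in the 50 combinations of class, sex and age, and the replicate number itself comes from the sample titles. Nothing says that replicates were more than separate libraries of separate mice. The p-values without the block measure the spread between these and do not account for the shared deviations of same-numbered animals.

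The members, lists and tests were chosen with earlier results of these data known. Named genes are the 10 members, called genes of the further lists (at most 5 per list and comparison, by adjusted p) and the 5 genes closest in class pattern to Cd74 and to H2-K1, among genes of at least 50 CPM in a class. Scripts were tested on simulated data. Cd74 shares were computed on cells of at least 1000 UMIs, thinned to 1000. Intervals cover counting error only.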

Additional observations from a re-analysis of the deposited data

Results flagged for a closer look

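A sample at the edge of its group of 4 was set apart by Dixon's test in 51 of 387 groups of genes and classes (13.2%). Of these samples, 21 were DN male 6 weeks replicate 1. The chance rate of about 1 in 20 holds for 4 like samples. Here each group mixes the sexes and holds a shallow library, so the excess is not read as a result. Shallow libraries were flagged as highest 7 times (DN female 6 weeks), 4 (control female 6 weeks) and 3 each (control and DN female 12 weeks). They were flagged as lowest 2 times (DN female 12 weeks) and 1 (control female 6 weeks). The values below, in CPM, are the 23 flagged in glomerular EC-like, mesangial-like, PT-like and immune-like cells, and those of other classes are not listed.

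In glomerular EC-like cells, DN male 6 weeks replicate 1 was the highest of the DN mice at 6 weeks for H2-K1 (2739), H2-Aa (42.2), H2-Ab1 (113), H2-Eb1 (34.9), Cd74 (38.8) and Tap1 (223). Control female 6 weeks replicate 1 was the highest control for H2-D1 (2455). In mesangial-like cells the same DN library was the highest for Tap1 (124) and Psmb8 (213). B2m there was highest in control female 12 weeks replicate 1 (1039) and in DN female 12 weeks replicate 1 (1444), both of the shallow batch.

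In PT-like cells, DN male 6 weeks replicate 1 was the highest for H2-Aa (42.1), H2-Ab1 (78.6), H2-Eb1 (43.9) and Psmb8 (13.7), and DN male 12 weeks replicate 1 for H2-Eb1 (44.8). DN female 12 weeks replicate 1 was the lowest for Ciita (0.501) and Tap1 (1.00). In immune-like cells, DN female 6 weeks replicate 1 was the highest for H2-Ab1 (8247) and Cd74 (42380). B2m there was highest in control female 6 weeks replicate 1 (4742), control female 12 weeks replicate 1 (4669) and DN female 12 weeks replicate 1 (3584), again libraries of the shallow batch.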

How the results depend on the processing

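Counts below are combinations of member and class called, from 0 without the block for DN at either age, for the difference between ages and for age in control mice. With the replicate block they were 7 at 6 weeks, 4 at 12 weeks, 1 for the difference between ages and 2 for age in control mice. With no filter on low counts they were 15, 4, 4 and 8, and with the barcode batch as a term 1 at 6 weeks. With the block and without DN male 6 weeks replicate 1, a setting chosen after seeing the data, they were 2, 6 and 4 for 6 weeks, 12 weeks and age in control mice. With the block and without control male 12 weeks replicate 1, also chosen after seeing the data, they were 7 at 6 weeks and 0 at 12 weeks, for the difference between ages and for age in control mice. The sex comparison, with 1 call, gave 21 with no filter, 0 without the batch term and 0 to 3 when 1 library was left out. No paired analysis was made for sex, because the block that was used contains it. The causes of these shifts were not tested. Calls over all genes rose in the same settings, at 6 weeks from 97 to 1722 with the block, 325 by DESeq2 and 1391 with no filter, and at 12 weeks from 479 to 4210, 1012 and 2334. These totals cover DN at each age only. No share over all genes is given for the counts with no filter, so these, with the 21 for sex, are a description.

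Cd74 in PT-like cells at 6 weeks changed sign, from 0.40 to -0.05 without control male 6 weeks replicate 2 and to -0.47 without DN male 6 weeks replicate 1 (range -0.47 to 1.05 with 1 library left out). Over the counts of the comparisons and the genes recomputed by name, which do not include every member and class, 782 values in alternative settings kept direction and side of the threshold, 26 moved, 23 passed newly, 12 no longer passed and 2 changed sign. Class II levels outside immune-like and PT-like cells rest on few UMIs per library, and small classes on few cells.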
